A study of Rattus norvegicus with 3 samples.

Results

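Messenger RNA levels in cultured ventricular myocytes of newborn rats were compared between a culture given phenylephrine and an unstimulated culture. The comparison set the array of the culture kept for 48 h with 20 µM phenylephrine against the array of the culture kept for 48 h without stimulus, over all probe sets that are not array controls. These were 2 of the 3 arrays of the study, and the third, of cells given PAMH at 1 µM for the same time, entered only the scaling, the floor and the choice of probe set. Each condition was 1 sample of total RNA on 1 Affymetrix rat array. The labels give no strain, sex, age beyond newborn, number of hearts or way in which non-muscle cells were removed. Of 15866 probe sets that are not controls, 12783 carried 1 gene symbol and stood for 10411 genes. Of these genes, 6571 were measured, meaning that their signal lay at or above a floor of 76.0 on both arrays, 746 lay below it on 1 array and 3094 on both.

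Phenylephrine activates α1-adrenergic receptors, which in the heart muscle cell act mainly through the G protein Gq. Gq switches on phospholipase C, whose products release calcium from internal stores and activate protein kinase C, and the signal runs on to MAP kinases, to the calcium-dependent phosphatase calcineurin and to transcription factors such as MEF2, GATA4, SRF and the TEAD factors. Ventricular myocytes of newborn rats have largely stopped dividing and answer such signals by growing in size, assembling more contractile filaments and raising genes of the fetal heart, a response known as hypertrophy and widely studied in this culture. The comparison addressed which messenger RNAs differed after prolonged stimulation of this kind.

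With 1 array on each side there was no replicate, so a ratio holds the difference between these particular cultures and arrays together with any effect of the agonist, and nothing below could be checked in a repeat. Precision is limited by the number of arrays. As a yardstick for the spread between probe sets alone, the SD of the log2 ratio within a gene was 0.26, over 749 genes with 2 measured probe sets. Both probe sets read the same RNA on the same arrays, so this SD leaves out differences between cultures, RNA samples and arrays. The ratio of 3′ to 5′ signal of the actin control, a sign of RNA integrity, was 1.72 on the unstimulated and 1.44 on the phenylephrine array, and that of Gapdh was 1.04 and 1.07. The array measures bulk RNA, so fewer cells of a type and less of an RNA per cell cannot be told apart.

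Below, signals are intensities after scaling the arrays to a common median, and the signal of the unstimulated array is always given first. A signal is that of 1 probe set, the brightest of its gene, and signals of different genes are not compared because probe sets differ in their response. Fold values and log2 ratios are phenylephrine over unstimulated unless called lower. Gene lists were described by the number of their measured members at least 1.5-fold higher or lower, and many of them also by their median. These are to be read beside the values for all measured genes. A gene past 1.5-fold that came within it under at least 1 of 10 processing alternatives is named at the end of its paragraph with its weakest log2 ratio. Over all measured genes, 585 of 6571 genes (8.9%) were at least 1.5-fold higher, 298 (4.54%) were at least 1.5-fold lower, and the median log2 ratio was 0.07. On the intensities as deposited, before that scaling, 396 genes were at least 1.5-fold higher and 519 lower, so the lower side was then the larger.

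Markers of the labelled cell type were bright on both arrays. All 21 ventricular and general myocyte markers were measured, among them the cardiac troponin T gene Tnnt2 at 8970.2 and 10682, the cardiac troponin C gene Tnnc1 at 9906 and 12802 and the α-myosin heavy chain gene Myh6 at 10978 and 10778. Their signals summed to 105672 and 143539. Of these markers, 7 were at least 1.5-fold higher and 1 lower. Their median log2 ratio of 0.25 ranged from -0.11 to 0.21 under other scalings. The highest ratio among them was that of Nppb, a gene known to respond in hypertrophy, with 3227 and 12872. Nppa, another gene known to respond in hypertrophy and given below, also enters the sum, to which bright genes contribute most. Whether the larger sum reflects more myocyte RNA was not tested. Fibroblast-type RNA was also present, with 11 of 14 markers measured and a summed signal of 22027 and 22114. Of these, the collagen gene Col1a1 had signals of 1977 and 1621, while Tcf21, a transcription factor gene of cardiac fibroblasts, lay at 78.2 and 48.3 and Pdgfra at 104 and 61.4. Of the smooth muscle and pericyte markers 9 of 13 were measured, with sums of 5439.6 and 12240.4. The smooth muscle myosin gene Myh11, which defines that cell type, had signals of 278 and 282, and the pericyte proteoglycan gene Cspg4 (NG2) had 70.7 and 429, below the floor without stimulus and at least 5.64-fold higher. The invariant chain gene Cd74 of antigen-presenting cells had 121 and 80.0, 1.51-fold lower. Few markers of other cells were measured, namely 3 of 11 for endothelium, 3 of 15 for macrophages and blood, 2 of 13 for Schwann cells and neurons and 3 of 5 for epicardium. The endothelial genes Pecam1 (19.4 and 20.5) and Vwf (13.1 and 31.0), the leukocyte gene Ptprc (8.71 and 35.9) and the Schwann cell gene Sox10 (16.3 and 7.16) were below the floor on both arrays. Cd74 (-0.39) came within 1.5-fold under at least 1 alternative.

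**Figure D1:**
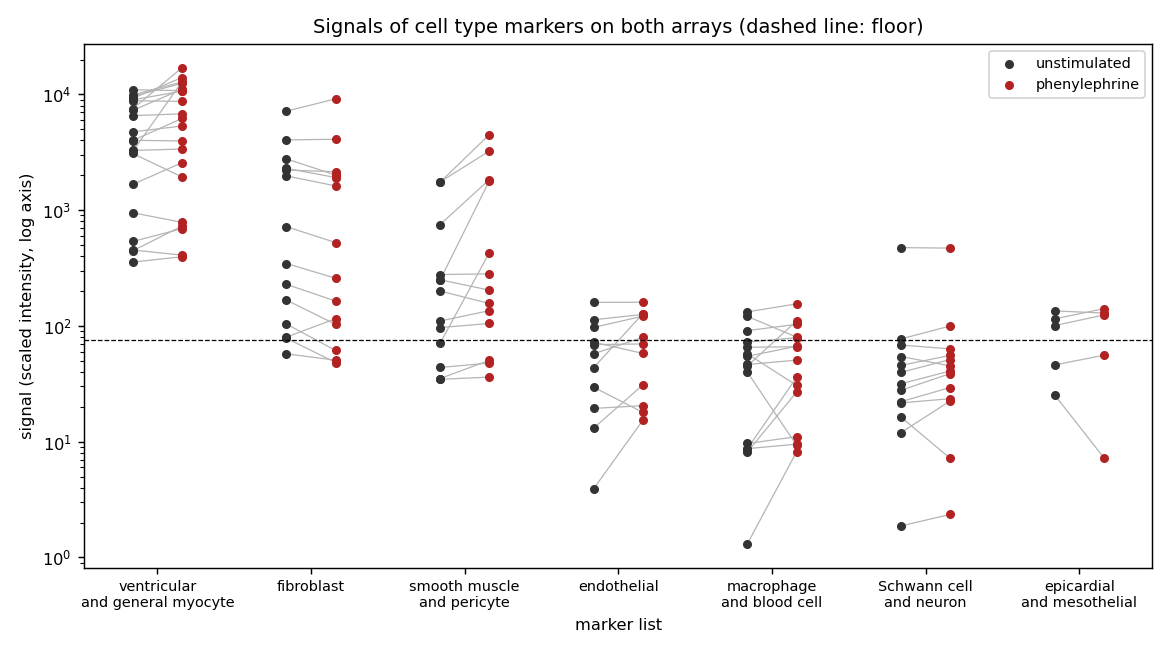
Signals (scaled intensity, log axis) of every marker on the array for 7 cell types, with the unstimulated array in black, the phenylephrine array in red and a line joining the same gene. Myocyte markers lie above the floor of 76.0 on both arrays, whereas most markers of endothelium, blood, Schwann cells and neurons lie below it.

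Most measured fibroblast markers were slightly lower with phenylephrine, while their summed signal, led by the bright genes S100a4 and Vim, was level. The 11 measured markers had a median log2 ratio of -0.29, with 0 at least 1.5-fold higher and 1 lower, and the median ranged from -0.49 to -0.33 under the 4 other scalings. Tcf21 and Pdgfra, given above, were below the floor with phenylephrine only, so they are outside this count and median. Decorin (Dcn), a collagen-binding proteoglycan, was the lower member, with signals of 167 and 103, 1.62-fold lower. Periostin (Postn), a matrix protein of activated fibroblasts, had signals of 721 and 525, and Lum, of collagen fibril assembly, 229 and 164, both within 1.5-fold. Of 9 smooth muscle markers, 4 were at least 1.5-fold higher and 0 lower. These were Cnn1, Des, Acta2 and Tagln, all of which are also expressed in immature heart muscle, and the median was 0.30. The part of non-muscle cells in any ratio below was not tested. Dcn (-0.50) came within 1.5-fold under at least 1 alternative.

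Of the measured genes, 172 (2.62%) reached a ratio of 2-fold upward and 50 (0.761%) of 2-fold downward. Most genes differed little, as 5688 (86.6%) lay within 1.5-fold, the 25th to 75th percentiles of log2 ratios ran from -0.17 to 0.30, and the 5th and 95th percentiles were -0.56 and 0.76. The higher side was also the longer one, with 41 genes at least 3-fold higher against 7 lower, and 16 against 3 at 4-fold. The share of genes past 2-fold that were higher was 77.5%, which became 58.9% on the intensities as deposited (132 higher and 92 lower) and 66.2% after quantile normalization (139 and 71). Under each of the 4 other scalings that gave a value, 119 of the 172 higher genes and 50 of the 50 lower genes were again past 2-fold in the same direction. All 4 scalings lowered the median log2 ratio of measured genes, from 0.07 to between -0.05 and 0.03. Such a shift moves higher genes toward the 2-fold limit and lower genes away from it, so the 2 counts are not compared. The ratio depended on brightness: the median log2 ratio was 0.01 in the dimmest of 5 equal groups of genes by signal, 0.09 in the next to brightest and 0.19 in the brightest, so small ratios of bright genes are read against that shift. Of the 172 higher genes, 48 had an unstimulated signal under 152, which is 2 floors, and of the 50 lower genes 27 had a phenylephrine signal under it.

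**Figure D2:**
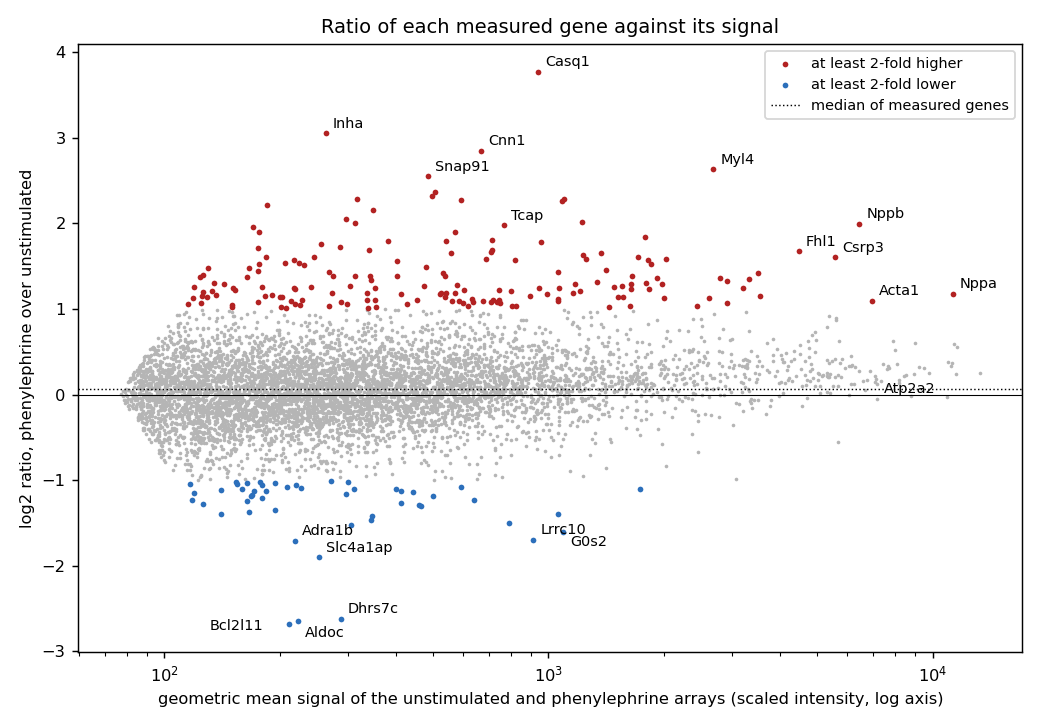
Log2 ratio of phenylephrine over unstimulated (vertical) against the geometric mean signal of both arrays (horizontal, log axis), 1 point for each of 6571 measured genes. The 172 genes at least 2-fold higher (red) reach a log2 ratio of 3.77 at Casq1, and the 50 at least 2-fold lower (blue) reach -2.68 at Bcl2l11.

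The fetal cardiac program was the list with the highest median. All 20 of its genes were measured, 15 of them (75%) at least 1.5-fold higher and 0 lower, and the median log2 ratio of 1.18 lay between 0.92 and 1.14 under the 4 other scalings. This list was composed of genes known to respond in hypertrophy, so its direction was fixed by that choice. Myl4, the atrial and fetal essential myosin light chain, had signals of 1080.3 and 6697, 6.20-fold higher. Nppb, which encodes B-type natriuretic peptide, a circulating marker of cardiac load, had 3227 and 12872 and was 3.99-fold higher. Atrial natriuretic peptide (Nppa) had 7516 and 16987, 2.26-fold higher. The gene of the strain-sensing sarcomere protein Fhl1 had 2512 and 8004, 3.19-fold higher, and its second probe set gave a log2 ratio of 2.64. Csrp3, the muscle LIM protein of the Z-disc, had 3199 and 9717, 3.04-fold higher. Gdf15, a stress cytokine of the TGF-β family, was near the floor without stimulus, with 97.2 and 317, 3.27-fold higher. Rcan1, an inhibitor and target gene of calcineurin, had 855 and 2339, 2.73-fold higher. Each of these genes was past 1.5-fold under all alternatives that gave a value. The embryonic myosin heavy chain gene Myh3, which stood in the thick filament and skeletal lists, lay below the floor without stimulus (26.6 and 523) and was at least 6.88-fold higher.

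Promoter sequences are shown for a few genes with motifs of transcription factors known from the hypertrophic response, 5 of them higher and 1 lower with phenylephrine. Promoters were taken from RefSeq (build GRCr8), as the 250 bases before and 50 after a gene's start, and 139 of the 172 higher, 40 of the 50 lower and 5566 of the 6571 measured genes had one or more. The M-CAT element CATTCCT, the site of TEAD factors, was found on either strand in 15 of the 139 higher genes (10.8%), in 3 of the 40 lower genes (7.5%), in 228 of the 5566 measured genes (4.1%) and in 5.17% of all 33469 promoters of the table. Counted by gene, M-CAT was found in 5.55% of the 27457 genes with a promoter there. Its 15 higher genes were Acta1, Acta2, Nppb, Mybpc2, Slc16a3, Hspb1, Timp1, Flnc, Phlda3, Mllt11, Avpi1, Dab2, Wfs1, St3gal2 and Crispld2. In the promoters below, given 5′ to 3′ on the gene's own strand, capitals mark each match to a searched motif.

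Nppb, chr5:163699758-163700057, plus strand, with M-CAT on the opposite strand from 132 bases before the start: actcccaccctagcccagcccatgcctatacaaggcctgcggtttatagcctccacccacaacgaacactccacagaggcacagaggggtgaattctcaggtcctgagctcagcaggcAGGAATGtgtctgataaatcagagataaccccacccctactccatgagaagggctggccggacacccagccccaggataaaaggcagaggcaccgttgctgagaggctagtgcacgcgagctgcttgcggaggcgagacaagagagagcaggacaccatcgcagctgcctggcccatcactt

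Acta1, chr19:68784145-68784444, minus strand, with a CArG box of the serum response factor SRF from 94 and M-CAT from 67 bases before the start: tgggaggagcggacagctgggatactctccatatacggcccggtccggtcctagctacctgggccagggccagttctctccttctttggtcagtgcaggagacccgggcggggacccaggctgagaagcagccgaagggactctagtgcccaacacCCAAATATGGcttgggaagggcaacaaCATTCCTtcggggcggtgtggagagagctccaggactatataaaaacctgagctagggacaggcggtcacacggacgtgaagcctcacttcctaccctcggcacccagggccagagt

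Acta2, chr1:241172454-241172753, minus strand, with M-CAT on the opposite strand from 197 bases before the start: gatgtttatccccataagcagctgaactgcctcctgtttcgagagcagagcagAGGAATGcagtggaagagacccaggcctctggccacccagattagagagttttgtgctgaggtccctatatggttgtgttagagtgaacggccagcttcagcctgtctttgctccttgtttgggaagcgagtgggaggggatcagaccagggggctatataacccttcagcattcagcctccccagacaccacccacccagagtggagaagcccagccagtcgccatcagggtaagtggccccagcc

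Slc16a3, chr10:106712078-106712377, plus strand, with AP-1 from 232 and M-CAT from 38, both on the opposite strand, bases before the start: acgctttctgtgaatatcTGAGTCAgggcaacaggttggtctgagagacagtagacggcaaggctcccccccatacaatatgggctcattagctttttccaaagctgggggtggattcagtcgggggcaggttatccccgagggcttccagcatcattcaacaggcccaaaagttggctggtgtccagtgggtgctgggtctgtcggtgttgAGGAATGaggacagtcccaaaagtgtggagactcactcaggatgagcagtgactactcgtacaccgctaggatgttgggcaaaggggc

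Fhl1, chrX:139638246-139638545, plus strand, with a CArG box from 102 bases before the start: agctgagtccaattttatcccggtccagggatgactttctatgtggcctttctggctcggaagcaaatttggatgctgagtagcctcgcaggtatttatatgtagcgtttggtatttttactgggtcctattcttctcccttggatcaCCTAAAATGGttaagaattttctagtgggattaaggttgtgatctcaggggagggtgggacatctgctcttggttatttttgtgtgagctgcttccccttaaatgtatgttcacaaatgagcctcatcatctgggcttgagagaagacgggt

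Lrrc10, a gene lower with phenylephrine, chr7:54572685-54572984, plus strand, with a GATA motif from 172 bases before the start: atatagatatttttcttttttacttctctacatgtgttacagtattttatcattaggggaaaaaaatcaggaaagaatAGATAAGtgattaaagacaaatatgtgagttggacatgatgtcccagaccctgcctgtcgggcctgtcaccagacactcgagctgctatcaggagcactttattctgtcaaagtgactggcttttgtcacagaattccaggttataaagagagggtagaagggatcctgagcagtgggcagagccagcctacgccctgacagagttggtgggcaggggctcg

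Each of the other motifs was searched on both strands in the same way. Shares of all promoters below count promoters, while the other shares count genes. Counted by gene, the shares over all 27457 genes were 1.77% for the CArG box, 5.12% for GATA, 5.04% for AP-1, 7.08% for the E-box and 2.84% for the sterol element. The CArG box was found in 4 of the 139 higher genes (2.88%), 0 of the 40 lower genes and 1.62% of measured genes, and in 1.64% of all promoters. The GATA motif (AGATAAG or TGATAAG, counted as 1 motif) was found in 4 higher genes (2.88%), 4 lower genes (10%) and 2.95% of measured genes, and in 4.77% of all promoters. AP-1 (TGACTCA) was found in 4 higher genes (2.88%), 0 lower genes and 3.72% of measured genes, and in 4.63% of all promoters. The E-box CACGTG was found in 14 higher genes (10.1%), 4 lower genes (10%) and 10.3% of measured genes, and in 6.42% of all promoters. The sterol element CACCCCAC was found in 6 higher genes (4.32%), 2 lower genes (5%) and 2.62% of measured genes, in 2.7% of all promoters, and in 1 of 20 cholesterol synthesis and uptake genes. None of the matches printed above overlaps another. A match is a string of letters and was not tested as a binding site.

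At the receptor itself, the RNA was lower. Adra1b, the gene of the α1B-adrenergic receptor, one of the receptors phenylephrine binds, had signals of 395 and 121, 3.26-fold lower. The other α1 receptor genes were below the floor on at least 1 array, with Adra1a at 8.43 and 53.7 and Adra1d at 94.9 and 39.8. The β1-adrenergic receptor gene Adrb1 lay at 47.2 and 58.7. Only 16 of 42 genes of receptors and G proteins were measured, 3 at least 1.5-fold higher and 1 lower, with a median log2 ratio of 0.11 that turned negative under other scalings (down to -0.07). Grk5, a kinase that desensitises G protein-coupled receptors, had 163 and 289, 1.78-fold higher. The nucleotide receptor gene P2ry6 (79.9 and 126) and the serotonin receptor gene Htr2a (97.2 and 149) were 1.58-fold higher and 1.54-fold higher from signals near the floor. The Gq gene Gnaq had 88.7 and 109 and the Gs gene Gnas 3769 and 5018, both within 1.5-fold. The muscarinic M2 receptor gene Chrm2, which slows the beat, had 147 and 103, a log2 ratio of -0.52. F2rl1, a protease-activated receptor gene, lay below the floor without stimulus, with 66.9 and 206. P2ry6 (0.44) and Htr2a (0.44) came within 1.5-fold under at least 1 alternative.

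Genes of phospholipase C and protein kinase C differed little. Of 19 measured of 35, 1 was at least 1.5-fold higher and 1 lower, around a median of -0.01 that ranged from -0.05 to 0.01 under other scalings. Plcg1, the phospholipase C isoform of tyrosine kinase receptors, had 489.7 and 257, 1.91-fold lower. Pla2g4a, the phospholipase that frees arachidonic acid, had 96.6 and 165, 1.70-fold higher. The Gq-coupled isoform genes Plcb3 (91.5 and 136) and Plcb4 (484 and 602) were within 1.5-fold, as were the kinase genes Prkca (135 and 167), Prkcd (519.7 and 383) and Prkce (179.9 and 175). Akap13, an anchoring protein that binds protein kinase D, had 785 and 1141, a log2 ratio of 0.54. Pla2g4a (0.55) came within 1.5-fold under at least 1 alternative.

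The MAP kinase list held phosphatases and feedback inhibitors among its higher members. Of 26 measured MAP kinase pathway genes, 6 were at least 1.5-fold higher and 0 lower, with a median of 0.16. Ier3, an early response gene that prolongs ERK activity, had 1047 and 2569, 2.45-fold higher. Map2k3, a kinase that activates p38, had 364 and 800.4, 2.20-fold higher. The phosphatase gene Dusp1, which switches off p38 and JNK, had 637 and 1054, 1.65-fold higher (log2 ratio 0.45 by the second probe set), and Dusp3 598 and 936, 1.56-fold higher. Spry2, an inhibitor of receptor tyrosine kinase signalling, had 437 and 697, 1.60-fold higher. Mapk6, an atypical MAP kinase, had 555 and 832, 1.5-fold higher. Among core kinases, Map2k1 had 496 and 586, Mapk8 (JNK1) 241 and 262 and Mapk14 (p38α) 427 and 407, all within 1.5-fold. At the other end Map3k1, which activates JNK, had 352 and 253, a log2 ratio of -0.48. Dusp1 (0.57), Dusp3 (0.50), Spry2 (0.55) and Mapk6 (0.44) came within 1.5-fold under at least 1 alternative.

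The immediate early genes, a class switched on within minutes of a stimulus, were read here after 48 h. Of 30 measured, 11 were at least 1.5-fold higher and 0 lower, and the median was 0.24. No gene of the Fos, Jun or Egr families was among the measured members past 1.5-fold. Gadd45g, a stress-induced growth arrest gene, had 383 and 1334, 3.48-fold higher. Id1, an inhibitor of basic helix-loop-helix factors and a target of BMP signalling, had 190.0 and 614, 3.23-fold higher, and Id3 had 392 and 708, 1.80-fold higher, whereas Id2 had 608 and 519, a log2 ratio of -0.23. Sik1, a salt-inducible kinase that acts on histone deacetylases, had 116 and 276, 2.38-fold higher. Mafk, a small Maf partner of bZIP factors, had 378 and 863, 2.28-fold higher. Homer1, a scaffold of calcium signalling, had 414 and 822, 1.99-fold higher, with other probe sets at log2 ratios of 0.44 to 0.57. Csrnp1 had 162 and 256, 1.58-fold higher, Gadd45a 649 and 1002, 1.54-fold higher, Klf6 253 and 387, 1.53-fold higher (second probe set 0.40), and Nfil3 163 and 248, 1.52-fold higher. Fos was below the floor without stimulus (51.2 and 83.5), and its relatives Fosb (1.97 and 30.1) and Fosl2 (31.5 and 18.7) were below it on both arrays. Jun had 263 and 383, a log2 ratio of 0.54, Egr1 had 252 and 196, -0.36, Myc had 132 and 111, -0.26, and Nr4a1 had 229 and 274, 0.26, all within 1.5-fold. Csrnp1 (0.53), Gadd45a (0.47), Klf6 (0.49) and Nfil3 (0.47) came within 1.5-fold under at least 1 alternative.

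Genes around calcineurin included members past 1.5-fold higher. None was past 1.5-fold lower, where the share over all measured genes was only 4.54%. Of 24 measured genes of calcineurin, NFAT, MEF2 and histone deacetylases, 7 were at least 1.5-fold higher and 0 lower, with a median of 0.11 that ranged from -0.02 to 0.11 under other scalings. Myoz2, calsarcin 1, which tethers calcineurin to the Z-disc, had 3920.1 and 7394, 1.89-fold higher. Fkbp1a, a binding protein of the ryanodine receptor and of calcineurin inhibitors, had 1943 and 3727, 1.92-fold higher, with other probe sets at 0.95 to 0.99. The histone deacetylase genes Hdac6 (163 and 441) and Hdac3 (267 and 469) were 2.70-fold higher and 1.75-fold higher, while Hdac5 (217 and 271) and Hdac2 (794 and 718) were within 1.5-fold. Mef2d, a transcription factor of the hypertrophic response, had 112 and 169, 1.52-fold higher, beside Mef2c at 656 and 659. The catalytic subunits Ppp3ca (726 and 761) and Ppp3cb (460.1 and 518) and the factor Nfatc3 (292 and 222) lay within 1.5-fold. Rcan2, the paralogue of Rcan1, had 1019 and 834, a log2 ratio of -0.29. Myoz2 (0.58) and Mef2d (0.44) came within 1.5-fold under at least 1 alternative.

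The cardiac transcription factors went both ways around a median of 0.01, which was negative under the 4 other scalings (-0.14 to -0.04). Of 21 measured, 4 were at least 1.5-fold higher and 2 lower. The only member past 2-fold higher was Csrp3 (log2 ratio 1.60), the muscle LIM protein already given in the fetal list. Nkx2-5, the homeobox factor of early heart development, had 446 and 728, 1.63-fold higher. Tead2, a TEAD family member, had 148 and 233, 1.57-fold higher, while Tead1, the family member with the M-CAT-binding activity best known in heart, had 1663 and 1753. Gata4 had 537 and 692, a log2 ratio of 0.37 with a second probe set at 0.86, and Srf had 722 and 833. On the lower side Rxrg, a retinoid receptor, had 271 and 124, 2.18-fold lower, and Prox1, a homeobox factor of heart and lymphatic development, had 439.7 and 276, 1.59-fold lower. Other factors of cardiac identity had log2 ratios of -0.51 for Hopx (501 and 352), -0.46 for Tbx5 (168 and 122), -0.42 for Gata6 (313 and 234) and -0.29 for Meis2 (571 and 466). Nkx2-5 (0.58) and Tead2 (0.51) came within 1.5-fold under at least 1 alternative.

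The Z-disc, which anchors the thin filaments and passes force between sarcomeres, had many higher members, among them Csrp3 and Fhl1, which the fetal list also holds. Of 33 measured genes of the Z-disc and costamere, 22 (66.7%) were at least 1.5-fold higher and 0 lower, with a median log2 ratio of 0.94 (0.73 to 0.90 under the 4 other scalings). Pdlim7, a PDZ and LIM domain protein that binds α-actinin, had 499.6 and 2425, 4.86-fold higher, although the log2 ratio was 0.23 by its second probe set and 1.26 when both were averaged. Enah, an actin polymerisation factor, had 607 and 2464, 4.06-fold higher. Tcap, telethonin, which caps titin at the Z-disc, had 385 and 1515, 3.93-fold higher. Pdlim3, the actinin-associated LIM protein, had 773 and 2425, 3.14-fold higher. Actn2, the α-actinin that crosslinks actin there and a myocyte marker, had 3998 and 6198, 1.55-fold higher. The lowest of the 33 members stayed within 1.5-fold. Actn2 (0.31) came within 1.5-fold under at least 1 alternative.

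Of 18 measured thick filament genes, 7 were at least 1.5-fold higher and 0 lower, with a median of 0.38 (0.09 to 0.34 under other scalings). Besides Myl4, Mybpc2, the fast skeletal myosin-binding protein C, had 91.4 and 341, 3.73-fold higher from a signal near the floor. Myl9, the smooth muscle regulatory light chain, had 2333 and 4568, 1.96-fold higher. The M-band proteins Myom1 (939 and 1539) and Myom2 (2212 and 3496) were 1.64-fold higher and 1.58-fold higher. Myl3, the ventricular essential light chain, had 7291 and 11060.2, 1.52-fold higher, and Myh7, the β-myosin heavy chain, 9264 and 13984, 1.51-fold higher, with a second probe set at 1.13. Myh6 had 10978 and 10778, a log2 ratio of -0.03 with a second probe set at -0.60. The gene of cardiac myosin-binding protein C, Mybpc3, had 3284 and 3373. Myom1 (0.52), Myom2 (0.36), Myl3 (0.23) and Myh7 (0.20) came within 1.5-fold under at least 1 alternative.

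The thin filament list had 3 of 16 measured genes at least 1.5-fold higher and 1 lower, and its median of 0.24 fell to -0.10 under another scaling. Smooth muscle α-actin (Acta2), which immature myocytes also make, had 752 and 1834, 2.44-fold higher. Skeletal α-actin (Acta1), the fetal isoform, had 4755 and 10153, 2.14-fold higher. Nrap, an anchor of assembling myofibrils, had 1004 and 2047, 2.04-fold higher. Tmod3, which caps pointed ends of actin, had 184 and 115, 1.60-fold lower. The cardiac troponins were within 1.5-fold, with log2 ratios of 0.37 for Tnnc1, 0.25 for Tnnt2 and -0.02 for Tnni3, of which the first and second turned negative under quantile and cyclic loess normalization. Tmod3 (-0.50) came within 1.5-fold under at least 1 alternative.

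A small set of fast skeletal muscle isoforms was measured, 11 of 33, of which 4 were at least 1.5-fold higher and 0 lower. The median log2 ratio of 0.15 ranged from -0.04 to 0.11 under other scalings, and 5 of the 11 had a ratio below 0. Casq1, the skeletal isoform of the calcium store protein calsequestrin, had signals of 255 and 3478, 13.7-fold higher, the highest ratio of all genes ranked. Eno3, the muscle enolase of glycolysis, had 269.6 and 1305, 4.84-fold higher. Myl1, the fast light chain, was below the floor without stimulus (33.9 and 305) and at least 4.01-fold higher. Myh1, a fast heavy chain, had 959 and 2283, 2.38-fold higher, but its other probe sets gave log2 ratios of -0.47 to 0.01. Its sequence is near that of the bright cardiac chains, so its ratio is uncertain. Under quantile normalization, where the brightest probe set of a gene was chosen anew, the log2 ratio of Myh1 was -0.75. Most of the list lay below the floor on at least 1 array, and the skeletal ryanodine receptor gene Ryr1 lay at 6.46 and 6.96.

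Beside Casq1, genes of calcium handling went both ways. Of 34 measured, 4 were at least 1.5-fold higher and 4 lower, with a median of 0.19. Cacna2d1, the α2δ subunit of the L-type calcium channel, had 416 and 740.3, 1.78-fold higher. S100a11, a calcium-binding protein, had 4599 and 7067, 1.54-fold higher. Dhrs7c, a short-chain dehydrogenase of the sarcoplasmic reticulum, had 712 and 116, 6.13-fold lower, and its phenylephrine signal was under 2 floors. S100a13 had 517 and 181, 2.87-fold lower. Cacna1g, the T-type channel Cav3.1, had 252 and 116, 2.18-fold lower, while its relative Cacna1h had 108 and 149, a log2 ratio of 0.46. Trdn, triadin of the release complex, had 427 and 267, 1.60-fold lower, and a second probe set at -0.37. The pump and channel genes of the main calcium cycle were within 1.5-fold, with log2 ratios of -0.05 for the pump Atp2a2 (7286 and 7057), -0.02 for its inhibitor Pln (8829 and 8704), -0.27 for the release channel Ryr2 (949.8 and 786), 0.10 for the L-type channel Cacna1c (360.4 and 385, -0.03 on the intensities as deposited) and 0.39 for the sodium-calcium exchanger Slc8a1 (2609.8 and 3414). Casq2, the cardiac calsequestrin, had 3952 and 5773, a log2 ratio of 0.55. Camk2d, the cardiac calmodulin kinase, had 1546 and 1133, -0.45. S100a11 (0.28) and Trdn (-0.52) came within 1.5-fold under at least 1 alternative.

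Sodium and chloride channels and the sodium pump set the excitability of the cell, and potassium channels end its action potential. Of 14 measured sodium, chloride and pacemaker channel and pump genes, 6 (42.9%) were at least 1.5-fold higher and 0 lower, with a median log2 ratio of 0.45 (0.35 to 0.40 under other scalings). Atp1b1, the β1 subunit of the sodium pump, had 2081 and 5319, 2.56-fold higher, against a log2 ratio by the second probe set of 1.18. Fxyd1, phospholemman, the pump's regulator in heart, had 1705 and 3487, 2.05-fold higher. Scn3b, a β subunit of the sodium channel, had 104 and 299, 2.88-fold higher. Hcn2, a pacemaker channel of immature and stressed ventricle, had 114 and 203, 1.78-fold higher, and Fxyd5 78.0 and 149, 1.91-fold higher, both from signals under 2 floors. Of 32 potassium channel genes, 8 were measured and none was past 1.5-fold in either direction.

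The intercalated disc joins neighbouring myocytes through adherens junctions, desmosomes and gap junctions. Gja5, connexin 40 of atria and conduction tissue, had 642 and 267, 2.41-fold lower, with a second probe set at -0.61. Of 18 measured genes of the intercalated disc, 3 were at least 1.5-fold higher and 1 lower, and the median of 0.14 became -0.07 under another scaling. Ctnna1, αE-catenin, which ties cadherins to actin, had 4146 and 7560.5, 1.82-fold higher. Xirp1, an actin-binding protein of the disc, had 476 and 824, 1.73-fold higher, and Tjp1, the scaffold ZO-1, 502 and 758, 1.51-fold higher. Among contacts with the matrix, 7 of 25 measured genes were at least 1.5-fold higher and 0 lower, with a median of 0.27. Bcar1, p130Cas, a docking protein of focal adhesions, had 99.4 and 277, 2.79-fold higher. Itgb1bp2, melusin, which senses stretch at integrin β1, had 645 and 1739, 2.70-fold higher. The laminin receptor subunits Itga6 (170.2 and 445) and Itga7 (484 and 911) were 2.61-fold higher and 1.88-fold higher. Cd151, a tetraspanin partner of these integrins, had 1903 and 3319, 1.74-fold higher. Ctnna1 (0.54), Tjp1 (0.46) and Cd151 (0.52) came within 1.5-fold under at least 1 alternative.

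Regulators of the actin cytoskeleton included genes on both sides, 10 of 41 at least 1.5-fold higher and 2 lower, with a median of 0.26. Calponin (Cnn1), an actin-binding protein of smooth and immature heart muscle, had 249 and 1793, 7.20-fold higher. Msn, moesin, a linker of membrane and actin, had 1199 and 3077, 2.57-fold higher. Cfl2, the muscle cofilin, had 1841 and 4635, 2.52-fold higher, with a second probe set at 1.41. Flnc, the muscle filamin, had 613 and 1455, 2.37-fold higher, while Tagln, transgelin, had 1755 and 3238, 1.84-fold higher. Lasp1 (900.3 and 583) and adducin 3, Add3 (516 and 341), were 1.54-fold lower and 1.52-fold lower. Tubulin and intermediate filament genes were higher in 9 of 26 and lower in 0, with a median of 0.37. Krt18, a keratin of simple epithelia that early heart also makes, had 85.8 and 398, 4.63-fold higher. Tubb6, a β-tubulin, had 325 and 872, 2.68-fold higher. Kif5b, the heavy chain of kinesin 1, had 1146 and 2819, 2.46-fold higher. Des, desmin, the intermediate filament of muscle, had 1747 and 4493, 2.57-fold higher, and Tuba4a, an α-tubulin, 1023 and 2259, 2.21-fold higher. Add3 (-0.54) came within 1.5-fold under at least 1 alternative.

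**Figure D3:**
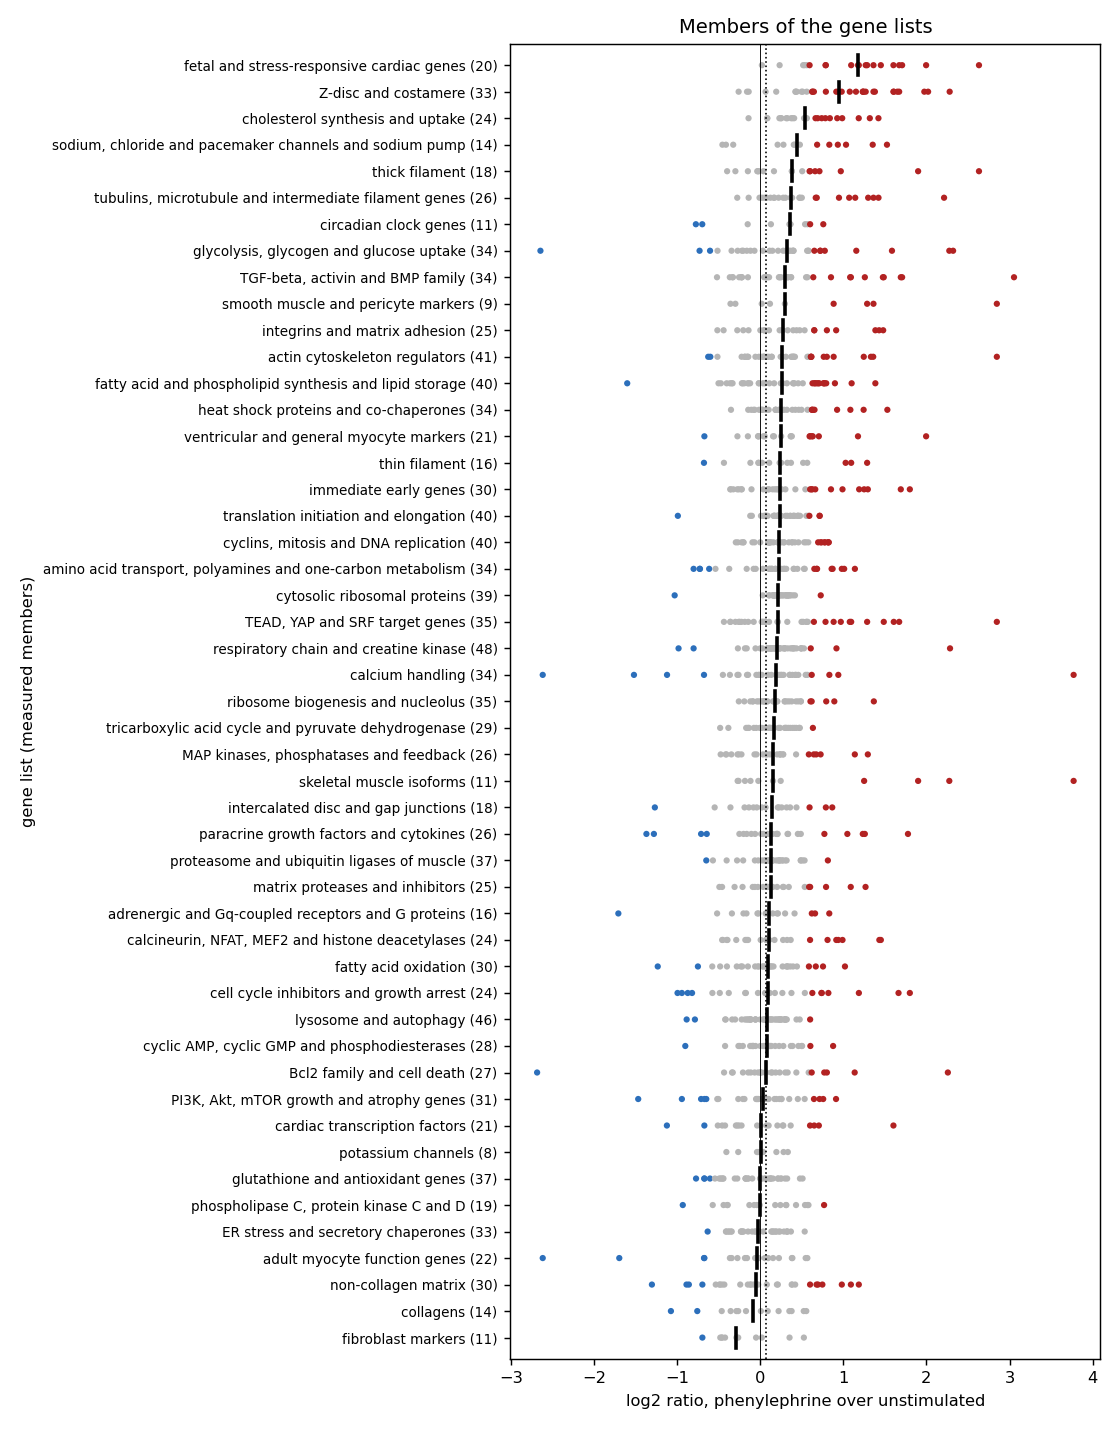
Log2 ratio of every measured member (points) of the gene lists shown, each with at least 8 measured members, with the list median (black bar), members at least 1.5-fold higher in red and lower in blue, and the dotted line at the median of all measured genes, 0.07. The fetal list (1.18) and the Z-disc list (0.94) have the highest medians and the fibroblast markers (-0.29) the lowest.

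Insulin-like growth factors act through PI3K and Akt to raise protein synthesis and restrain atrophy genes. Of 31 measured genes of PI3K, Akt, mTOR and atrophy, 4 were at least 1.5-fold higher and 5 lower, with a median of 0.04 that became -0.08 under another scaling. Pik3ip1, an inhibitor of phosphoinositide 3-kinase, had 575 and 208, 2.77-fold lower. Sesn1, a sestrin that restrains mTOR complex 1, had 172 and 89.7, 1.92-fold lower. Foxo3, a transcription factor of atrophy, had 306 and 192, 1.59-fold lower, and its target Trim63, the muscle ubiquitin ligase MuRF1, had 692 and 441, 1.57-fold lower. Igf2 had 127 and 77.4, 1.64-fold lower, close to the floor. Among the higher members, Igfbp7, an insulin-like growth factor binding protein, had 1085 and 2043, 1.88-fold higher, and Pik3ca, a catalytic subunit of the kinase, had 183 and 310.0, 1.69-fold higher, with a second probe set at 0.24. Eif4ebp1, the repressor of cap-dependent translation that mTOR inactivates, had 721 and 1183, 1.64-fold higher, and Insr, the insulin receptor, had 100.1 and 157, 1.57-fold higher. Foxo3 (-0.56), Igf2 (-0.47), Pik3ca (0.50), Eif4ebp1 (0.55) and Insr (0.46) came within 1.5-fold under at least 1 alternative.

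Growth of the cell needs ribosomes and translation factors. Of 35 measured genes of ribosome biogenesis, 5 were at least 1.5-fold higher and 0 lower, with a median of 0.18. Polr1c, a subunit of RNA polymerases I and III, had 355 and 616, 1.73-fold higher. Polr1e, of RNA polymerase I, had 100.4 and 186, 1.86-fold higher. Gar1 and Nhp2, of the particles that modify ribosomal RNA, had 76.9 and 198 (2.58-fold higher) and 399 and 613 (1.54-fold higher). Tsr1, of small ribosomal subunit assembly, had 328 and 499, 1.52-fold higher. Of 40 measured translation factors, 3 were at least 1.5-fold higher and 1 lower, with a median of 0.23. Eef1a2, the muscle and nerve isoform of elongation factor 1, had 452 and 742, 1.64-fold higher, and Eef1d, of its exchange factor, 1490.3 and 2246, 1.51-fold higher. Eef2k, the kinase that slows elongation, had 186 and 93.4, 1.99-fold lower, but a second probe set gave a log2 ratio of -0.17. The 39 measured cytosolic ribosomal proteins mostly lay within 1.5-fold, with 1 at least 1.5-fold higher and 1 lower, and their median of 0.22 turned to -0.10 under another scaling. The higher one was Rpl41 (3831 and 6345, 1.66-fold higher) and the lower one Rpl39 (278 and 136, 2.04-fold lower), both short genes with many near-identical copies, so their ratios are uncertain. Nhp2 (0.49), Tsr1 (0.48), Eef1a2 (0.58), Eef1d (0.35), Eef2k (-0.58) and Rpl41 (0.41) came within 1.5-fold under at least 1 alternative.

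Of 34 measured genes of amino acid transport, polyamines and one-carbon metabolism, 8 were at least 1.5-fold higher and 4 lower, with a median of 0.22. Polyamine genes were on both sides. Azin1, which frees ornithine decarboxylase from its inhibitor, had 1055 and 2323, 2.20-fold higher, and Sat1, which starts polyamine breakdown, 239 and 481, 2.01-fold higher, while Amd1, of spermidine synthesis, had 330.2 and 216, 1.53-fold lower. Of the transporters, Slc38a1 for glutamine had 447 and 882, 1.97-fold higher (second probe set 0.50), and Slc6a6 for taurine 634 and 1159, 1.83-fold higher. Slc1a3 for glutamate had 394 and 714, 1.81-fold higher, with other probe sets at 0.54 to 0.68. Slc6a8, the creatine transporter, had 471 and 270.3, 1.74-fold lower, though a second probe set gave 0.06. Slc1a5, of neutral amino acids, had 324 and 196, 1.66-fold lower, and Psat1, of serine synthesis, 780.4 and 472, 1.65-fold lower. Amd1 (-0.52) and Slc6a8 (-0.37) came within 1.5-fold under at least 1 alternative.

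Both lists of lipid synthesis held more members past 1.5-fold upward than downward, as did all measured genes (8.9% and 4.54%). Of 24 measured genes of cholesterol synthesis and uptake, 10 (41.7%) reached 1.5-fold higher and 0 lower, with a median of 0.54. Fdps, of farnesyl diphosphate synthesis, had 2148 and 5759, 2.68-fold higher. Idi1, the isomerase before it, had 848 and 2116, 2.49-fold higher, and Sqle, squalene epoxidase, 348 and 791, 2.27-fold higher. Pmvk, of the mevalonate pathway, had 173 and 329, 1.90-fold higher, and Hsd17b7, of the later steps, 88.8 and 176, 1.98-fold higher (log2 ratio 0.17 by another probe set). Of 40 measured genes of fatty acid and phospholipid synthesis and lipid storage, 13 (32.5%) were at least 1.5-fold higher and 1 lower, with a median of 0.26. Plin3, a lipid droplet coat protein, had 333 and 870.3, 2.61-fold higher. Scd, the stearoyl-CoA desaturase, had 507 and 1087, 2.14-fold higher. Chka, choline kinase, which starts phosphatidylcholine synthesis, had 116 and 217, 1.86-fold higher. The acyl-CoA synthetases Acsl3 (356 and 618) and Acsl4 (418 and 713) were 1.73-fold higher and 1.71-fold higher. In the opposite direction G0s2, an inhibitor of the lipase that opens lipid droplets, had 1905 and 628, 3.03-fold lower. Hsd17b7 (0.58) came within 1.5-fold under at least 1 alternative.

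Heart muscle takes its energy from fatty acids after birth and relies more on glucose before it. Of 34 measured genes of glycolysis, glycogen and glucose uptake, 8 were at least 1.5-fold higher and 3 lower, with a median of 0.32 that ranged from 0.06 to 0.28 under other scalings. Slc16a3, the lactate exporter MCT4, had 223 and 1114, 5.00-fold higher. Pfkp, the platelet-type phosphofructokinase, had 1170.1 and 3511, 3.0-fold higher, while Pfkm, the muscle type, had 1308 and 789, 1.66-fold lower, against a log2 ratio of -0.55 by its second probe set. Pgm1, of glycogen turnover, had 598 and 1333, 2.23-fold higher, and Slc2a4, the insulin-responsive glucose transporter GLUT4, 222 and 380.3, 1.71-fold higher (log2 ratio 0.05 by another probe set). Aldoc, the brain-type aldolase, had 556 and 88.9, 6.25-fold lower, its phenylephrine signal being near the floor, and Pygb, glycogen phosphorylase of brain type, 1075 and 708, 1.52-fold lower. In fatty acid oxidation, 4 of 30 measured genes were at least 1.5-fold higher and 2 lower, and the median of 0.09 became -0.02 under another scaling. Hadh, which oxidises hydroxyacyl-CoA of short and medium length, had 982 and 418, 2.35-fold lower, and Acaa2, the thiolase of the last step, 499 and 297, 1.68-fold lower. Acadm, the medium-chain dehydrogenase, had 1143 and 1817, 1.59-fold higher. Oxct1, of ketone body use, had 1159.8 and 1958, 1.69-fold higher, and Ucp2, a carrier of the inner mitochondrial membrane, 249 and 505, 2.03-fold higher. Its muscle relative Ucp3 had 85.8 and 129, 1.5-fold higher. Slc2a4 (0.41), Pygb (-0.57), Acadm (0.44), Oxct1 (0.52) and Ucp3 (0.40) came within 1.5-fold under at least 1 alternative.

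Of 48 measured genes of the respiratory chain and creatine kinases, 3 were at least 1.5-fold higher and 2 lower, and their median of 0.21 turned to -0.08 under another scaling. Ckb, the creatine kinase of brain and fetal heart, had 144 and 699.9, 4.87-fold higher, while the muscle isoform Ckm had 2517 and 2216, a log2 ratio of -0.18, and was chosen after its value was seen. Gatm, of creatine synthesis, had 111 and 209, 1.89-fold higher, and Cox6a1, a cytochrome oxidase subunit, 2997 and 4568, 1.52-fold higher. Cox8b, the heart and muscle isoform of a cytochrome oxidase subunit, had 4335 and 2194, 1.98-fold lower. Idh3a was the only one of 29 measured genes of the tricarboxylic acid cycle past 1.5-fold, with 397 and 615, 1.55-fold higher. Myoglobin (Mb), the oxygen store of heart muscle, had 3088 and 1938, 1.59-fold lower. Lrrc10, a leucine-rich repeat protein found in heart, had 1642 and 507, 3.24-fold lower, the lowest ratio after Dhrs7c in the list of adult myocyte function. That list had 0 of 22 measured genes at least 1.5-fold higher and 4 lower, with a median of -0.04 (-0.35 to -0.08 under other scalings). Like the other lists, it was chosen with earlier results of these data known. Cox6a1 (0.29) and Idh3a (0.51) came within 1.5-fold under at least 1 alternative.

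Heat shock proteins keep other proteins folded, and the small ones bind sarcomere and filament proteins in muscle. Of 34 measured heat shock proteins and co-chaperones, 8 were at least 1.5-fold higher and 0 lower, and all of the higher ones but Bag2 were small heat shock proteins. Hspb3, a small heat shock protein of muscle, had 1087 and 3139, 2.89-fold higher, and Hspb1 had 2084 and 4936, 2.37-fold higher. Hspb8, which works in autophagy of filament proteins, had 544 and 1032, 1.90-fold higher, and Hspb6 1285 and 2021, 1.57-fold higher. Hspb7, a small heat shock protein of heart and a myocyte marker, had 1670.4 and 2570.3, 1.54-fold higher. Bag2, a co-chaperone of Hsp70, had 486 and 1031, 2.12-fold higher. Genes of ER stress had 0 of 33 at least 1.5-fold higher and 1 lower, the lower one being Trib3, a target of the integrated stress response, with 341 and 220.1, 1.55-fold lower. Of 37 measured glutathione and antioxidant genes, 0 were at least 1.5-fold higher and 4 lower. These were the glutathione transferases Gstm1 (245 and 143, 1.71-fold lower) and Gsta1 (402 and 253, 1.59-fold lower), heme oxygenase 1, Hmox1 (349 and 219, 1.60-fold lower), and Txnip, an inhibitor of thioredoxin (1327 and 873, 1.52-fold lower). Hspb6 (0.39), Hspb7 (0.37), Trib3 (-0.53), Gsta1 (-0.58), Hmox1 (-0.57) and Txnip (-0.58) came within 1.5-fold under at least 1 alternative.

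In the cell death list 5 of 27 measured genes were at least 1.5-fold higher and 1 lower. Bcl2l11, which encodes the death-promoting protein Bim, had 537 and 83.5, 6.43-fold lower, the lowest ratio of all genes ranked, with a phenylephrine signal near the floor. Tnfrsf12a, the receptor of the cytokine TWEAK, had 495 and 2366, 4.78-fold higher. Tnfrsf11b, osteoprotegerin, a decoy receptor, had 136 and 299.7, 2.20-fold higher. Aifm1, a mitochondrial flavoprotein, had 899 and 1568, 1.74-fold higher, and Cidea, of lipid droplets and cell death, 379.9 and 648, 1.71-fold higher. Casp6, an executioner caspase, had 83.9 and 129, 1.54-fold higher. Of 40 measured cyclins and genes of mitosis and replication, 8 were at least 1.5-fold higher and 0 lower, with a median of 0.22. Ccnd1, the G1 cyclin D1, had 452 and 801, 1.77-fold higher, with other probe sets at 0.76 to 0.97. The mitotic genes Ube2c (365 and 642), Kif20a (264 and 452) and Ccnb1 (399 and 682) were 1.76-fold higher, 1.72-fold higher and 1.71-fold higher. Cell cycle inhibitors went both ways, 7 of 24 at least 1.5-fold higher and 4 lower. Plk2, a stress-induced kinase, had 399 and 1263, 3.17-fold higher, and Phlda3, a p53 target, 224 and 509, 2.28-fold higher. Cdkn1c, the inhibitor p57, had 239.8 and 136, 1.77-fold lower. Rbl2, the retinoblastoma relative p130, had 235 and 129, 1.83-fold lower. Perp, a p53 target of cell junctions, had 712 and 357, 1.99-fold lower (log2 ratio -0.29 by another probe set), the lowest ratio of the inhibitors. Ccng1, cyclin G1, also a p53 target, had 1371 and 2419.9, 1.77-fold higher, and Cdkn3, a phosphatase of cyclin-dependent kinases, 357 and 597, 1.67-fold higher. Casp6 (0.42) and Ccng1 (0.56) came within 1.5-fold under at least 1 alternative.

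Factors of the TGF-β family act on muscle and non-muscle cells alike. Of 34 measured genes of the family, its inhibitors and targets, 10 (29.4%) were at least 1.5-fold higher and 0 lower, with a median of 0.30 (0.17 to 0.30 under other scalings). Inha, the α subunit of inhibin, had 91.3 and 758, 8.30-fold higher, and Inhba, the subunit shared by inhibin A and activin A, 78.0 and 217, 2.78-fold higher, both unstimulated signals being near the floor. Tgfb2 had 287 and 805, 2.80-fold higher, with a second probe set at 1.65. Fstl3, a binder of activin, had 77.0 and 184, 2.39-fold higher.

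Among other secreted factors 26 of 71 were measured, 5 at least 1.5-fold higher and 4 lower, with a median of 0.13. Sema3c, a guidance factor of the outflow tract, had 515 and 1767, 3.43-fold higher. Hbegf, a ligand of the EGF receptor shed in response to Gq signals, had 142 and 335, 2.35-fold higher. The endothelin gene Edn1, itself a hypertrophic agonist, had 99.2 and 169, 1.71-fold higher, and Ccl20 had 157 and 325, 2.07-fold higher. Lower were the Notch ligand gene Jag1 (268 and 104, 2.58-fold lower), the chemokine gene Cxcl12 (197 and 81.1, 2.43-fold lower) and Fgf13, an intracellular partner of sodium channels (906 and 580.2, 1.56-fold lower). Ntn1, netrin 1, had 358 and 54.7, the latter under the floor, and was at least 4.71-fold lower. Edn1 (0.56) came within 1.5-fold under at least 1 alternative.

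The extracellular matrix surrounds the myocytes and ties them to their neighbours. Of 30 measured members of the non-collagen matrix list, 7 were at least 1.5-fold higher and 4 lower, with a median of -0.05. Spp1, osteopontin, had 181 and 413, 2.28-fold higher. The laminin chains Lama4 (463 and 986) and Lamc1 (1779 and 2989) were 2.13-fold higher and 1.68-fold higher, and perlecan, Hspg2 (157 and 253), 1.62-fold higher. Ecm1, a secreted glycoprotein, had 289 and 570.5, 1.97-fold higher, and Emilin1, of elastic fibres, 171 and 94.3, 1.81-fold lower. Lama2, the laminin chain of mature muscle, had 1551 and 839, 1.85-fold lower. Ogn, osteoglycin, a small proteoglycan, had 732 and 297, 2.47-fold lower, with a second probe set at -1.46. Of 14 measured collagens 0 were at least 1.5-fold higher and 2 lower, these being Col14a1 (857 and 407, 2.11-fold lower) and Col6a1 (311 and 184, 1.69-fold lower). Among matrix proteases and inhibitors, 5 of 25 were at least 1.5-fold higher and 0 lower. The crosslinking enzyme Lox had 196 and 471, 2.41-fold higher, and the protease inhibitor Timp1 401 and 852, 2.13-fold higher. Serpinf1, a secreted serpin, had 118 and 205, 1.73-fold higher, and Cst3, the inhibitor cystatin C, 796 and 1196, 1.5-fold higher. The fibroblast markers, of which 11 of 14 were measured, had a negative median (-0.29) beside these matrix genes. Their sums (22027 and 22114), led by S100a4 and Vim, were level and leave out Tcf21 (78.2 and 48.3), which was below the floor with phenylephrine. The part of fibroblast RNA in these ratios was not tested. Lamc1 (0.48), Hspg2 (0.56) and Cst3 (0.42) came within 1.5-fold under at least 1 alternative.

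Of the targets of TEAD, YAP and SRF, factors that read actin dynamics and tension, 11 of 35 measured were at least 1.5-fold higher and 0 lower, with a median of 0.21. The highest ratio among them was that of Cnn1, already given with the actin cytoskeleton. Csrp1, a LIM protein of smooth muscle related to Csrp3 and also among them, had 979.9 and 2985, 3.05-fold higher. Of 28 measured genes of cyclic nucleotide signalling, 2 were at least 1.5-fold higher and 1 lower. Adcy5, the main adenylyl cyclase of heart, had 263 and 141, 1.87-fold lower, and Prkar2b, a regulatory subunit of protein kinase A, 269 and 494, 1.84-fold higher. Gucy1a1, a subunit of the guanylyl cyclase that nitric oxide activates, had 196 and 298, 1.52-fold higher. Of 11 measured clock genes, 2 were higher and 2 lower, the first of each being Bhlhe40 (113 and 191, 1.69-fold higher) and its paralogue Bhlhe41 (168 and 98.3, 1.71-fold lower). The second of each were Nfil3, given above, and Nr1d2, the repressor Rev-erbβ (389 and 239.9, 1.62-fold lower, log2 ratio -0.28 by another probe set). Of 46 measured lysosome and autophagy genes, Ctsb (1228 and 1863, 1.52-fold higher) was higher, and the autophagy kinase gene Ulk1 (143 and 77.5, 1.85-fold lower) and Ctsc (359.7 and 209, 1.72-fold lower, second probe set -0.19) lower. The 37 measured proteasome and muscle ubiquitin ligase genes had 1 member higher, Ube2c, and 1 lower, Trim63, both given above, and their median of 0.13 became -0.04 under another scaling. Gucy1a1 (0.48), Bhlhe40 (0.57), Bhlhe41 (-0.56), Nr1d2 (-0.49), Ctsb (0.36) and Ctsc (-0.49) came within 1.5-fold under at least 1 alternative.

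Among the 30 highest and 30 lowest ratios were genes of no list. Snap91, a clathrin adaptor best known at synapses, had 201 and 1177, 5.85-fold higher. Ildr2, a membrane protein of the immunoglobulin family, had 223 and 1150.2, 5.16-fold higher. Ptgis, prostacyclin synthase, had 165 and 737, 4.46-fold higher. Por, the electron donor of microsomal cytochromes P450, had 156 and 629, 4.02-fold higher, with a second probe set at 1.57. Akip1, which binds protein kinase A in heart muscle, had 939 and 3374, 3.59-fold higher, with other probe sets at 1.88 to 2.07. Adprhl1, a heart gene of filament assembly, had 290.2 and 1007, 3.47-fold higher. Fzd2, a Wnt receptor, had 158 and 520.1, 3.29-fold higher. Pxdc1 (146 and 607), Gpr155 (86.7 and 336), Mllt11 (295 and 1103), Bex1 (206 and 712) and Uaca (139 and 471) were between 3.39-fold and 4.15-fold higher.

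On the lower side, Slc4a1ap, also called kanadaptin, had 488 and 130.5, 3.74-fold lower. Nrep had 1322 and 469, 2.82-fold lower, and Ctdsp2, a small phosphatase of RNA polymerase II, 1714 and 651, 2.63-fold lower. Sphkap, an anchoring protein of protein kinase A, had 719.8 and 294, 2.45-fold lower. Adss1, the muscle enzyme of AMP synthesis, had 445 and 199, 2.23-fold lower, and Abcc3, an export pump, 589 and 273, 2.15-fold lower. Fitm2, of lipid droplet formation, had 252 and 107, 2.36-fold lower. Epas1, the hypoxia factor HIF-2α, had 456 and 213, 2.14-fold lower, although the log2 ratio was -0.03 by its second probe set and -0.56 when both were averaged. Zcchc24, Usp21, Sorl1, Gramd4, Gypc, Gpc3, Oxr1 and Ptp4a3 lay between 2.19-fold and 2.67-fold lower. Wfdc1 (66.0 and 349.5) was below the floor without stimulus and at least 4.60-fold higher.

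**Figure D4:**
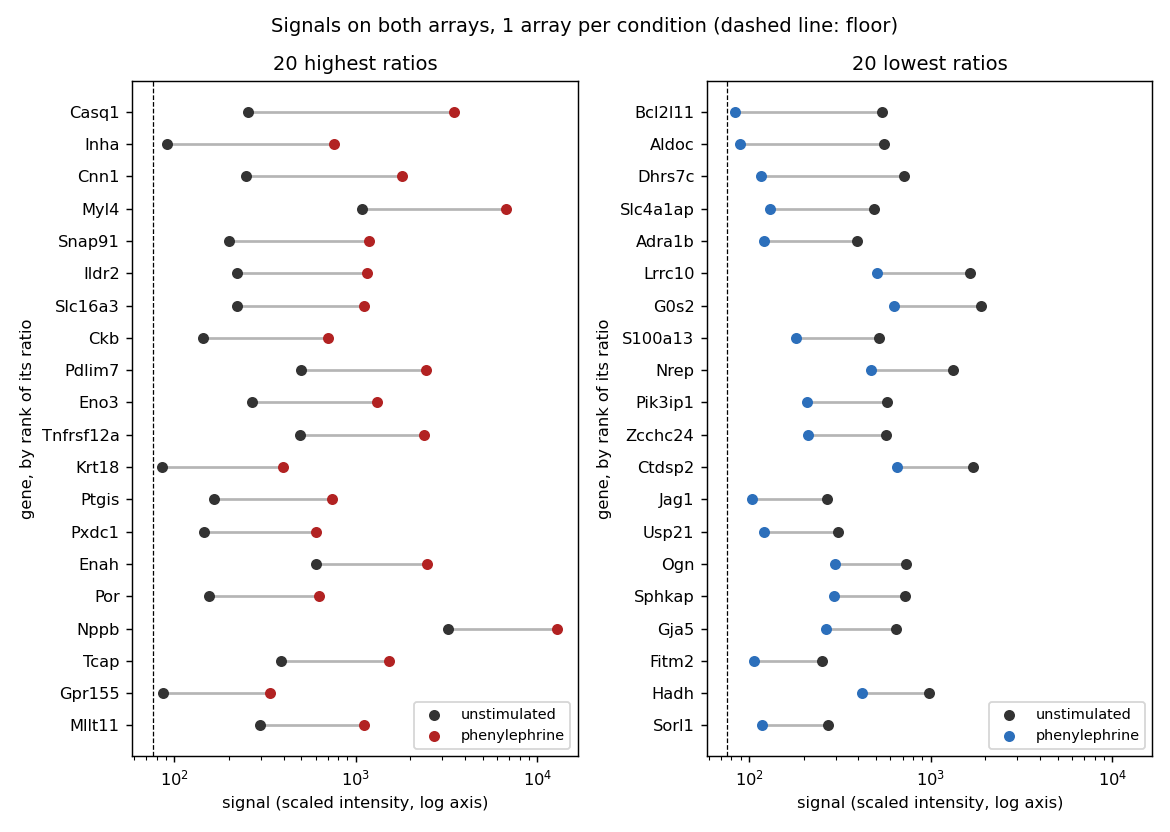
Signals (scaled intensity, log axis) on the unstimulated array (black) and the phenylephrine array (red or blue) for the genes with the 20 highest and 20 lowest ratios among genes with a mean signal above 160, with the floor as a dashed line. Casq1 spans 255 and 3478 and Nppb 3227 and 12872, while Bcl2l11 (83.5) and Aldoc (88.9) end close to the floor of 76.0 with phenylephrine.

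**Figure D5:**
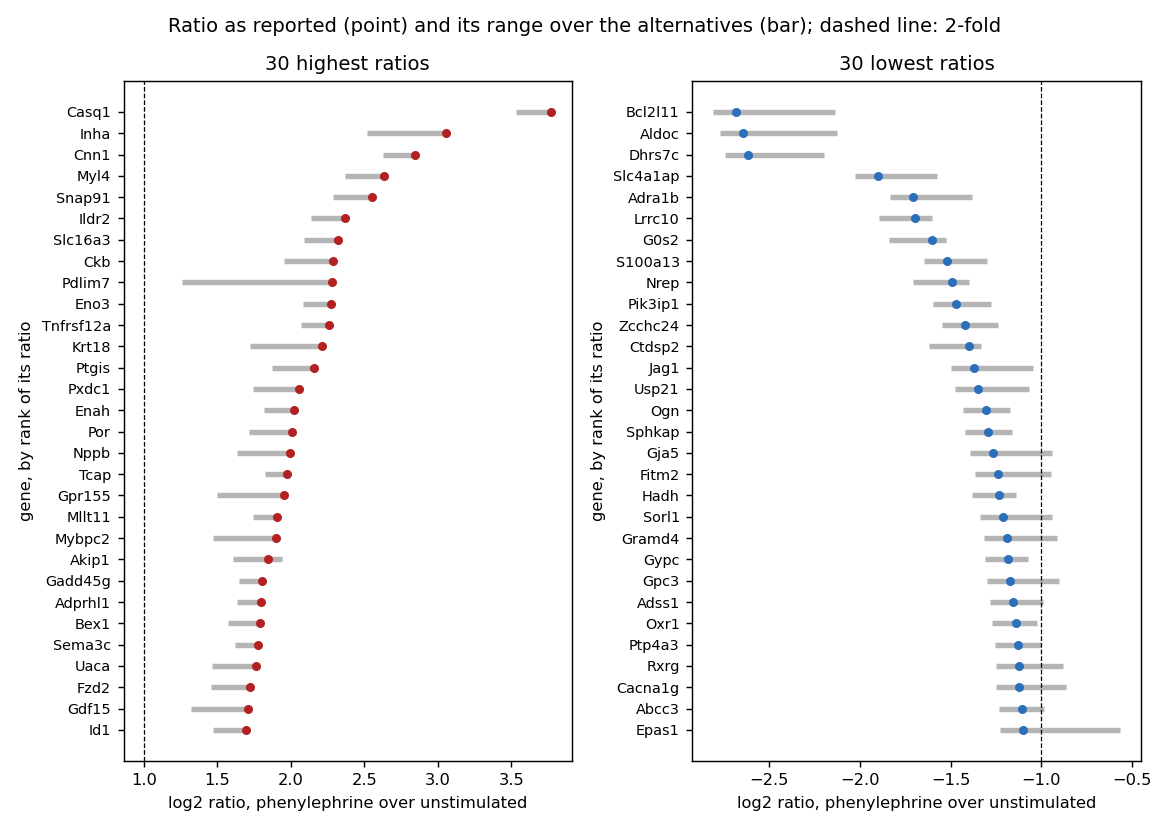
Log2 ratio of the 30 highest- and 30 lowest-ranked genes (points), with the range over the 10 processing alternatives (bars) and 2-fold as a dashed line. All 30 highest stay at least 2-fold higher and 20 of the 30 lowest at least 2-fold lower under each alternative that gave a value, which for 14 of the 30 highest and 17 of the 30 lowest was fewer than 10.

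Probe sets without 1 gene symbol were counted only. Of 1130 such probe sets with no symbol above the floor on both arrays, 17 (1.5%) had a ratio of 2-fold or more upward and 11 (0.973%) downward, against 199 (2.63%) and 57 (0.752%) of 7576 with 1 symbol.

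The array of cells given PAMH shares the unstimulated array with this comparison, and its agent and dose differed, so its signals are only set beside those above. For the 3 genes highest with phenylephrine it had 2118 for Casq1, 150.3 for Inha and 1395 for Cnn1. For the 3 lowest it had 134 for Bcl2l11, 159.8 for Aldoc and 45.2 for Dhrs7c, the last of these below the floor.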

How the data were processed

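Total RNA of 3 cultures, 1 per condition, was measured on Affymetrix rat arrays. The deposited values are 1 linear intensity per probe set and array, and of the software and normalization behind them the sources used here say nothing. The deposited columns had medians of 118 (unstimulated), 108 (phenylephrine) and 106 (PAMH). Each array was scaled to a common median over the 15866 non-control probe sets, with factors of 0.937, 1.02 and 1.04. Symbols came from the platform annotation, updated through gene IDs for 12748 probe sets. A gene was its brightest probe set by the mean of 3 arrays. The floor was percentile 40 of all scaled values, and a bound set the brighter signal, above percentile 75, against the floor where the other array lay below it.

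The genes named were the 30 highest and 30 lowest ratios where the mean signal exceeded percentile 60, no more than 10 bounds per direction, the 5 furthest members of each list in each direction past 1.5-fold, and any member of the lists of receptors, signalling, calcium handling, transcription factors and cell type markers. The comparison and the 54 lists were chosen with earlier results of these data known. Of these lists, 1 is not reported here. No test was run, since each group was 1 array. The 10 alternatives covered scaling (the intensities as deposited, percentile 75, quantile and cyclic loess in limma 3.58.1), the floor, an offset of 50 and the choice of probe set. Python 3.11.15, numpy 2.4.6, pandas 2.3.3 and R 4.3.3 were used, and the ratio script was tested on simulated data.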

Additional observations from a re-analysis of the deposited data

How the results depend on the processing

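The 4 counts of genes past 2-fold and 1.5-fold were recomputed under 10 alternatives. With no filter on dim probe sets, 672 genes were at least 2-fold higher and 476 lower, and 1470 and 1094 at 1.5-fold, since genes below the floor then enter. Genes at least 2-fold lower numbered 92 on the intensities as deposited, 77 with the floor at percentile 25, 21 with it at percentile 60 and 23 with an offset of 50, and genes at least 1.5-fold lower numbered 519, 450, 144 and 177 under the same settings. The other 28 recomputed counts were within 1.5 times the value reported. On the intensities as deposited the median log2 ratio of all measured genes was -0.05, a shift of -0.12, and no other alternative shifted it by over 0.1. Of 2442 ratios recomputed for 258 named genes, 105 moved by more than the SD between probe sets of a gene. Among genes past 1.5-fold, 2 ratios turned direction, both of Myh1, at -0.75 after quantile normalization and -0.0023 for the mean of probe sets. Under each other scaling the brightest probe set of a gene was chosen anew, so a ratio can come from another probe set. Among genes within 1.5-fold, 5 ratios turned sign, those of Tnnc1 (-0.11 and -0.02) and Tnnt2 (-0.11 and -0.13) after quantile and cyclic loess normalization and that of Cacna1c (-0.03) on the intensities as deposited. The cause was not tested. With 1 array per condition no replicate could be left out. No paired analysis was possible because each condition was 1 array with no replicate number. Signals near the floor limit the dimmest ratios.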
